A study of Mus musculus with 37 samples.

Results

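The 10 genes described here, Vegfa, Vegfc, Kdr, Flt1, Flt4, Tek, Angpt1, Angpt2, Pecam1 and Cdh5, encode growth factors, receptors and junction proteins of the blood and lymph vessels. They were taken by symbol from a table of 24421 genes, and all 10 were found. WTS (bulk RNA-seq) was made from the urinary tract of wild-type (WT) female BALB/c mice, in 37 libraries. Mice were given the nitrosamine carcinogen BBN in drinking water for 18 weeks per the labels, or tap water. UT was the side of a treated animal's upper urinary tract that bore the cancer (11 libraries from 10 mice, UT 5R and UT 5L being both ureters of 1 mouse). UN was the noncancer side of BBN-treated mice (7 libraries), and U was the ureter of untreated mice (6 libraries, the right and left ureters of 3 mice). The remaining libraries were 10 bladders of BBN-treated mice and 3 bladders of untreated mice. UT, UN and BBN bladder libraries with the same number came from the same mouse, and the 3 untreated bladders came from the 3 mice of U. The groups therefore do not hold separate animals. UT 9 and BBN bladder 6 stayed out of the fits, the former as in the clustering of the study and the latter because its library name carries a T that its title does not.

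Vessels are lined by endothelial cells, which need VEGF signaling to survive and to sprout. Vegfa acts mainly through the receptor Kdr, while Flt1 binds the same ligand tightly with weak signaling of its own, and Vegfc with its receptor Flt4 directs lymphatic growth. Angpt1, made by cells around the vessel, activates the receptor Tek and keeps vessels quiet, and Angpt2, made by endothelial cells themselves, competes with it. Pecam1 and Cdh5 join neighboring endothelial cells. Carcinogen-treated urothelium can grow into invasive tumors that depend on this supply.

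Depth was 9724542 to 16735797 counts in UT, 4675081 to 14973904 in UN, 12980008 to 18793560 in U, 3557697 to 15104379 in BBN bladders and 14348701 to 16617435 in untreated bladders. The 10 genes together had 288 to 10751 counts per library. The RNA integrity number (RIN) was below 5 in BBN bladders 1, 3 and 4, UN 6 and U 1R. Of 25 other endothelial markers, all were measured in the 3 fits, and their summed level was 401.5 to 1419 CPM (counts scaled to the library total) in the 10 UT libraries of the fit and 1931 CPM in UT 9, 325 to 1269 in UN, 783.6 to 1114 in U, 124.8 to 1101 in the BBN bladders of the fit, 289.1 in BBN bladder 6 and 723.8 to 921.2 in untreated bladders, so endothelial RNA was present in every library. Markers of neighboring tissue were present too. Adipocyte markers (Adipoq, Plin1, Cidec, Lep and Retn) summed to 9971 to 15250 CPM in U, and kidney tubule markers to 2098 CPM in UT 4 against at most 10.71 CPM in the other UT libraries. The part of these other tissues in the results below was not tested.

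The promoters of the receptors are shown because Kdr, Tek and Flt1, receptors of the same cells, differed in their fold changes. RefSeq (GRCm38.p6) gave a promoter window, from 250 bases before to 50 after the start, for 6 of the 10 genes. Capitals mark GGAA on either strand, the core of the sites of ETS factors, which are known regulators of endothelial genes.
Kdr, chr5:75978406-75978705, minus strand: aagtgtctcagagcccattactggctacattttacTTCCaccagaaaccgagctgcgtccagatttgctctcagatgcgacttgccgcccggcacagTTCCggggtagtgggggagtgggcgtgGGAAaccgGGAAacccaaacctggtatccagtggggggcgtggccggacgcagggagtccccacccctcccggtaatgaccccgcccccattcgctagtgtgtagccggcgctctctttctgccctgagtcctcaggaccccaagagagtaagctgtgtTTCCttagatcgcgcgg
Tek, chr4:94739039-94739338, plus strand: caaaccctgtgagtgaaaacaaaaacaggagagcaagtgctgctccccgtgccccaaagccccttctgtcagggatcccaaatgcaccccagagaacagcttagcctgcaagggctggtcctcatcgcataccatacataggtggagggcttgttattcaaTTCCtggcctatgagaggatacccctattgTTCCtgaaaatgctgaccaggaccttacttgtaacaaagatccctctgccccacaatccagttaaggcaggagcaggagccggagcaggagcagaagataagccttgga
Flt1, chr5:147725962-147726261, minus strand: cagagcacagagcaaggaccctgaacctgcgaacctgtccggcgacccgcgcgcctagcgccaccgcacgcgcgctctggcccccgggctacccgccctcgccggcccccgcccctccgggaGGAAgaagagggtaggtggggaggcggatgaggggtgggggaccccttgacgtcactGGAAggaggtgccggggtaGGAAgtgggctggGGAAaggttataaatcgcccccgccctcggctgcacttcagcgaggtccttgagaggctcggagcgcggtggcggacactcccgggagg
The core stood 5 times in the Kdr window, 2 times in that of Tek and 4 times in that of Flt1. It occurs in 96% of 32851 promoter windows of this length, with a median of 3 per window, so these windows are ordinary in this respect. The longer ETS sequences CCGGAAGT and ACAGGAAG, in 3.89% and 3.58% of all windows on either strand, were in no window of these 6 genes. TATAAA was in the Flt1 window and in 13.6% of all windows. ACGTG, the core to which hypoxia-inducible factors bind, stood 0 times in the Vegfa window at the annotated start of the gene (chr17:46032328-46032627). It was in the other Vegfa window (chr17:46025114-46025413, minus strand), which lies inside the gene (chr17:46016993-46032369), and in 19.6% of all windows. These are matches of letters only.

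In the GENCODE annotation of GRCm38, Kdr lies at chr5:75932827-75978458 (minus strand, 30 exon blocks), Tek at chr4:94739289-94874976 (plus strand, 23), Angpt1 at chr15:42424723-42676977 (minus strand, 9) and Cdh5 at chr8:104101625-104144511 (plus strand, 12). Counts cover the exons of each gene as a whole, so isoforms such as soluble Flt1 are not told apart.

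Per kilobase of exon, the median levels in U were 34.8 CPM for Vegfa, 27.8 for Pecam1, 20.02 for Kdr and 12.4 for Tek, and the lowest was Flt4 at 1.12. In UT, the order began with Vegfa (21.8) and Pecam1 (21.7), followed by Tek (5.84) and Kdr (3.93), and ended with Vegfc (1.18). Kdr thus ranked above Tek in untreated ureter and below it in cancer, where the ranges of both genes overlap.

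**Figure D1:**
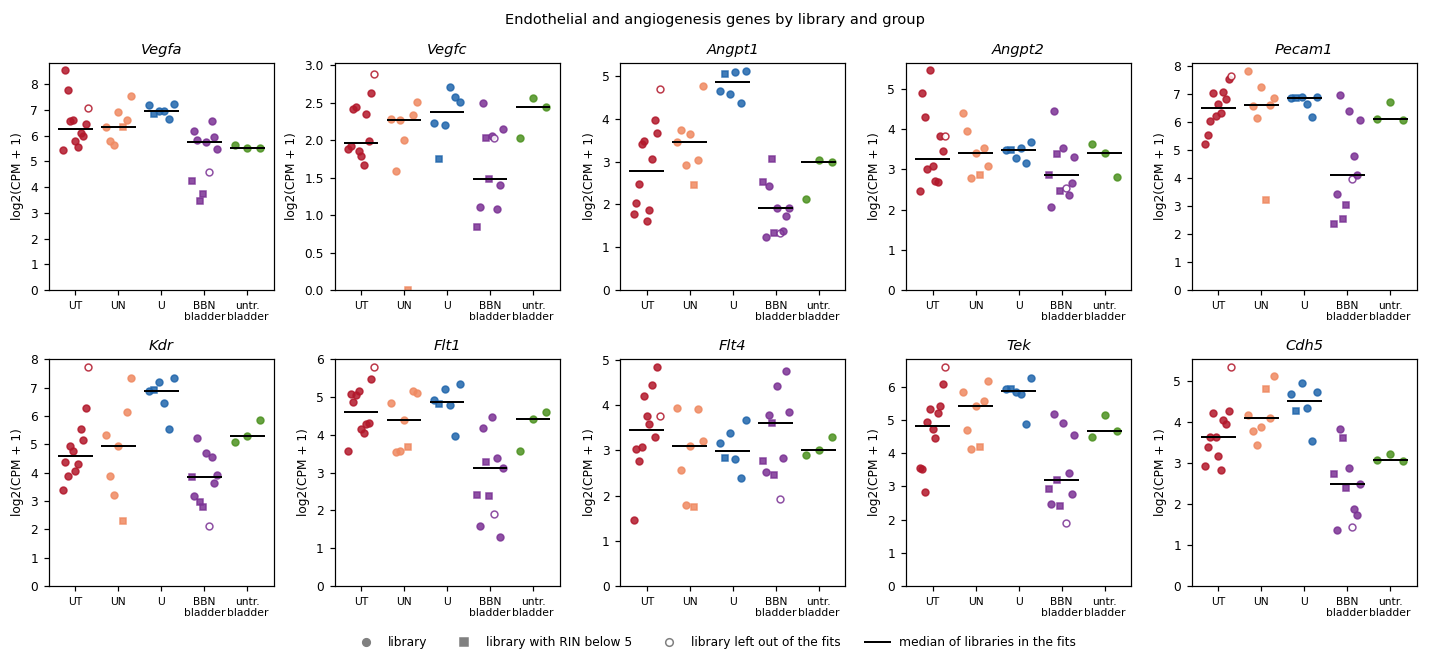
Level of each gene as log2(CPM + 1) on the vertical axis, with 1 point per library in 5 groups. Squares are libraries with RIN below 5, open circles are UT 9 and BBN bladder 6, and bars are medians of the libraries in the fits. Every U library lies above every filled UT point for Angpt1, and the open UT 9 point is the highest of all 37 libraries for Kdr.

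Cancer ureters were first compared with untreated ureters. The receptor Kdr and the ligand Angpt1 were lower by more than 2 on the log2 scale, and Tek and Cdh5 by more than 1, while Vegfa, Vegfc, Flt1, Flt4, Angpt2 and Pecam1 did not pass the test. A gene was called at an FDR under 0.1 with a fold of at least 2. By this rule 4 of 10 genes were lower and 0 higher, where 14.4% of 15615 genes were lower and 18.6% higher. The median log2 fold change was -0.57 over the 10 genes and 0.08 over all genes. In bulk tissue, fewer cells of a type and less RNA per cell cannot be told apart.

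Among the receptors, Kdr was 45.24, 118.6 and 162.9 CPM (lowest, median and highest) in U and 9.405, 23.25 and 76.11 CPM in the 10 UT libraries. The groups overlapped through U 3L, the lowest U library, which lay below UT 6 (46.03 CPM) and UT 8, the highest UT libraries of the fit. The log2 fold change was -2.30 ± 0.52 (SE, edgeR adjusted p = 0.00117). UT 9, outside the fit, had 212.1 CPM of Kdr, above every U library. With it the difference fell to -1.55 ± 0.62 (edgeR adjusted p = 0.045).

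Tek, the angiopoietin receptor, was 28.25, 58.27 and 76.35 CPM in U and 6.122, 27.46 and 67.48 CPM in UT. Its lowest values were in UT 2 (6.122) and UT 10 (10.51), which had the highest Vegfa. UT 1 had 10.75 CPM of Tek with the lowest Vegfa of UT (42.05 CPM). Over the ureter libraries of the fit, Vegfa and Tek correlated at r = 0.062. The log2 fold change was -1.30 ± 0.36 (edgeR adjusted p = 0.00577), and -0.95 with UT 9, under the 2-fold limit.

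The other VEGF receptors differed less. Flt1 was 14.52 to 39.45 CPM in U and 10.83 to 43.61 CPM in UT, overlapping almost fully (log2 fold change -0.52 ± 0.28, edgeR adjusted p = 0.127). Flt4, the receptor of lymphatic endothelium, was 4.231 to 11.71 CPM in U and 1.739 to 27.94 CPM in UT, with UT 8 highest and UT 1 lowest (log2 fold change 0.31 ± 0.40, edgeR adjusted p = 0.547). Neither passed the test.

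Among the ligands, Angpt1 was 19.66, 28.12 and 33.51 CPM in U and 2.057, 5.975 and 14.76 CPM in UT. The groups did not overlap in the 10 UT libraries of the fit, while UT 9 had 25.12 CPM, inside the U range. The log2 fold change was -2.33 ± 0.40 (edgeR adjusted p = 0.000114), and -1.95 ± 0.44 with UT 9. The exons of Angpt1 overlap those of Gm17473, and whether counting used strand is not given in the sources used here, so its counts may hold reads of that gene.

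Angpt2, the competing ligand, was 7.993, 10.22 and 11.86 CPM in U and 4.501, 8.739 and 43.55 CPM in UT. U was a narrow band inside the wide UT range, whose highest value was in UT 4, the library with kidney markers. The log2 fold change of 0.21 ± 0.42 (edgeR adjusted p = 0.702) turned to -0.10 without UT 4. Angpt2 lies within the gene Mcph1 on the other strand, and its estimated counts were fractional in 34 of 37 libraries, against 3 for Vegfa and 0 for 8 of the other genes, so its share of reads is less certain.

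Vegfa was 98.17, 122.4 and 149.6 CPM in U and 42.05, 76.94 and 376.2 CPM in UT. The median was lower in UT, but UT 10 (376.2) and UT 2 (217.1) exceeded every U library. The log2 fold change was -0.44 ± 0.41 (edgeR adjusted p = 0.386), and -0.85 without UT 10. Vegfc had low levels, 2.365 to 5.534 CPM in U and 2.181 to 5.181 CPM in UT (log2 fold change -0.62 ± 0.37, edgeR adjusted p = 0.171).

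Of the junction genes, Cdh5 was 10.68, 21.88 and 29.99 CPM in U and 6.075, 11.41 and 18.38 CPM in UT. U 3L and U 1R (18.3 CPM) lay within the UT range and the other 4 U libraries above it. The log2 fold change was -1.17 ± 0.31 (edgeR adjusted p = 0.00414), or -0.83 with UT 9. Pecam1 was 71.28, 115 and 119 CPM in U and 36.59, 89.6 and 185.5 CPM in UT, with a log2 fold change of -0.49 ± 0.35 (edgeR adjusted p = 0.265). The pair of endothelial junction genes therefore did not give the same call.

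Markers of other cells moved in the same comparison. Of 5 adipocyte markers 5 were lower in UT, where they summed to 8.21 to 4942 CPM against 9971 to 15250 CPM in U, with no overlap. Of 7 smooth muscle markers 5 were lower (372.7 to 2569 against 1816 to 3370 CPM), and of 6 leukocyte markers 4 were higher (180.7 to 882.9 against 125.8 to 223.4 CPM). Of 4 kidney tubule markers tested 4 were higher, and 1 of 3 without UT 4, as were 2 of 3 podocyte markers, and 0 of 2 without UT 4. Of 5 fibroblast markers 2 were higher, with a median log2 fold change of -0.19 over the 5, and 0 were called with the mouse as a random effect. Of 10 urothelial markers 3 were higher and 3 lower. The count of endothelial and angiogenesis genes called was 4 without UT 4 as well. The part of the other cells in the lower Kdr, Angpt1, Tek and Cdh5 was not tested. Among libraries of BBN-treated mice with high adipocyte sums, UN 2 (12800 CPM), UN 9 (9483 CPM), UN 4 (8329 CPM), UT 9 (7445 CPM) and UN 6 (7158 CPM, RIN below 5) had 13.89, 161.4, 30.1, 212.1 and 3.85 CPM of Kdr.

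**Figure D2:**
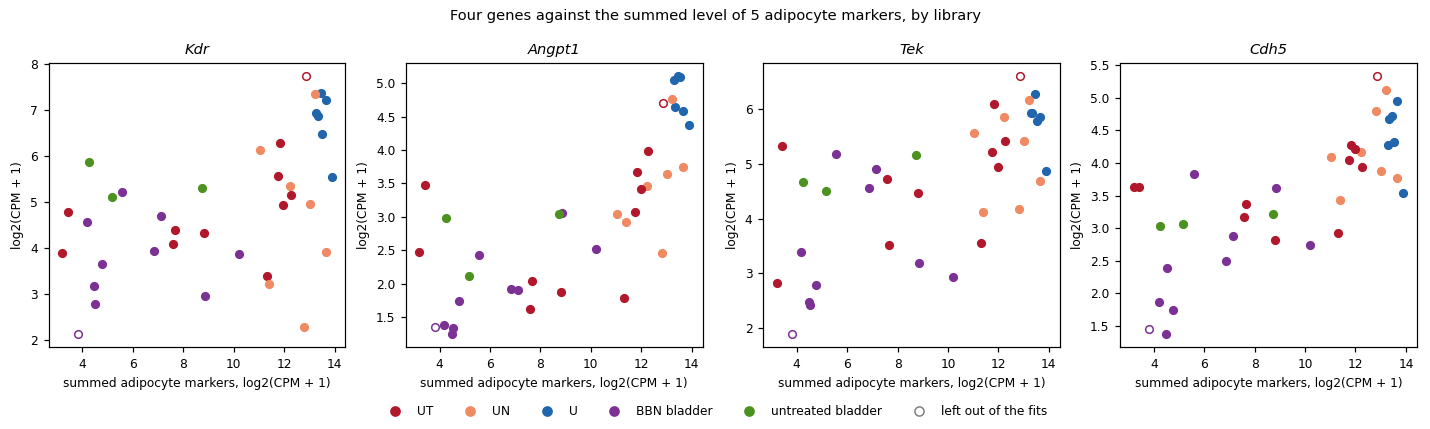
Kdr, Angpt1, Tek and Cdh5 as log2(CPM + 1) on the vertical axes against the summed level of 5 adipocyte markers as log2(CPM + 1) on the horizontal axes, with 1 point per library. Blue U libraries lie to the right and 5 of 6 lie high in the Kdr and Tek panels, with U 3L lower in each panel, while red UT libraries lie to the left of them, and among UN libraries to the right UN 9 is high, UN 4 lies between and UN 2 and UN 6 are low for Kdr.

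The cancer side was then compared with the noncancer side of BBN-treated mice, a comparison that shares UN and UT libraries with the others of the ureter. Cdh5 was lower by a narrow margin and no other gene was called. So 1 of 10 genes was lower and 0 higher, beside 7.97% of 15615 genes lower and 2.8% higher. With RIN as a covariate edgeR called 0 of 15615 genes in this comparison, with 1372 at an unadjusted p under 0.05, and with the mouse as replicate block 0 of 14868, with 459 at that level. The median log2 fold change was -0.19 over the 10 genes and -0.01 over all genes.

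Cdh5 was 9.75, 16.14 and 33.83 CPM in UN. The groups overlapped in part, with UT 1, UT 5R, UT 5L and UT 10 below every UN library and UN 6, of RIN below 5, and UN 9 above every UT library of the fit. Cdh5 had a log2 fold change of -1.001 ± 0.304 (edgeR adjusted p = 0.048). It was -0.72 without UN 6 and -0.80 without UN 9, and the call was lost in 7 of 17 fits that left out 1 library and in 8 of 10 other alternatives. Angpt1 was 4.492, 10.04 and 26.27 CPM in UN, with UN 9 far above the other 6 libraries (log2 fold change -0.99 ± 0.39, edgeR adjusted p = 0.0954, just under 2-fold). Angpt1 was called in 7 of those 17 fits and in 3 of the 10 alternatives, and was -0.61 without UN 9. Kdr was 3.85, 30.1 and 161.4 CPM in UN, again with UN 9 highest, and its log2 fold change of -0.88 ± 0.50 (edgeR adjusted p = 0.239) became 0.02 without UN 9.

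In 6 mice with both sides in the fit, Cdh5 was lower on the cancer side in 5 mice, by a mean log2 difference of -0.30 ± 0.69 (SD, n = 6). Kdr and Tek were lower in 4 of 6 mice and Angpt1 in 3 of 6, with Kdr running from -1.96 in mouse 1 to 3.28 in mouse 6. The value of mouse 6 rests on UN 6, of RIN below 5, with 3.85 CPM of Kdr. Mouse 2, counted as lower for Kdr, differed by -0.013. The pairs therefore pointed in no common direction for these receptors. Markers of other cells moved between the sides too. Of 7 smooth muscle markers 5 were lower in UT (372.7 to 2569 against 329.7 to 6709 CPM), as were 2 of 5 adipocyte (8.21 to 4942 against 2095 to 12800 CPM) and 3 of 3 red blood cell markers (58.23 to 1926 against 134.1 to 6880 CPM), and 3 of 4 kidney tubule markers were higher, UT 4 being the library with a high sum. Their part in the lower Cdh5 was not tested.

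With the mouse as replicate block, Cdh5 fell by 0.55 on the log2 scale and 0 genes were called. In mouse 9, of which UN 9 but not UT 9 was in the fit, both sides had high levels, with 212.1 and 161.4 CPM of Kdr and 25.12 and 26.27 CPM of Angpt1 in UT 9 and UN 9.

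The noncancer side was compared with untreated ureter, to see which differences were present on the side without cancer. These mice bore a tumor on the other side, and the study reported mutations in the noncancer side too. Angpt1 was lower and the other 9 genes were not called, so 1 of 10 genes was lower, beside 1.65% of 15615 genes lower and 11.9% higher. The median log2 fold change was -0.51 over the 10 genes, 9 of which were below 0, and 0.08 over all genes.

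For Angpt1 the log2 fold change was -1.33 ± 0.44 (edgeR adjusted p = 0.0464), and 6 of 7 UN libraries (4.492 to 12.43 CPM) lay below every U library. For Kdr it was -1.42 ± 0.57 (edgeR adjusted p = 0.1, not under the limit). Without UN 9, Kdr was called at -2.32 ± 0.49 (edgeR adjusted p = 0.00324) and Angpt1 reached -1.72 ± 0.43, and Kdr also passed without U 3L (-1.58, edgeR adjusted p = 0.0844). With UN 9 kept in, Kdr was called with the mouse as a random effect (-1.93 ± 0.54, limma adjusted p = 0.0327), with RLE, DESeq2, limma-trend and RIN as a covariate, and was not called with all 11 UT libraries or without the filter.

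Cdh5 (-0.17 ± 0.35, edgeR adjusted p = 0.77) and Pecam1 (-0.14 ± 0.38, edgeR adjusted p = 0.834) did not pass in this comparison. Cdh5 was -0.46 both without UN 6 and when the mouse entered as a random effect. UN 6, of RIN below 5, had 8.342 CPM of Pecam1, while the other UN libraries had 70.06 to 226.9 CPM. Its 26.95 CPM of Cdh5 lay within the 9.75 to 33.83 CPM of the others. Adipocyte markers, 2095 to 12800 CPM in UN, had a median log2 fold change of -1.02 against U, with 0 of 5 called. Of 10 urothelial markers 2 were higher and 1 lower, and of 6 leukocyte markers 2 were higher. The part of these markers in the lower Angpt1 was not tested.

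**Figure D3:**
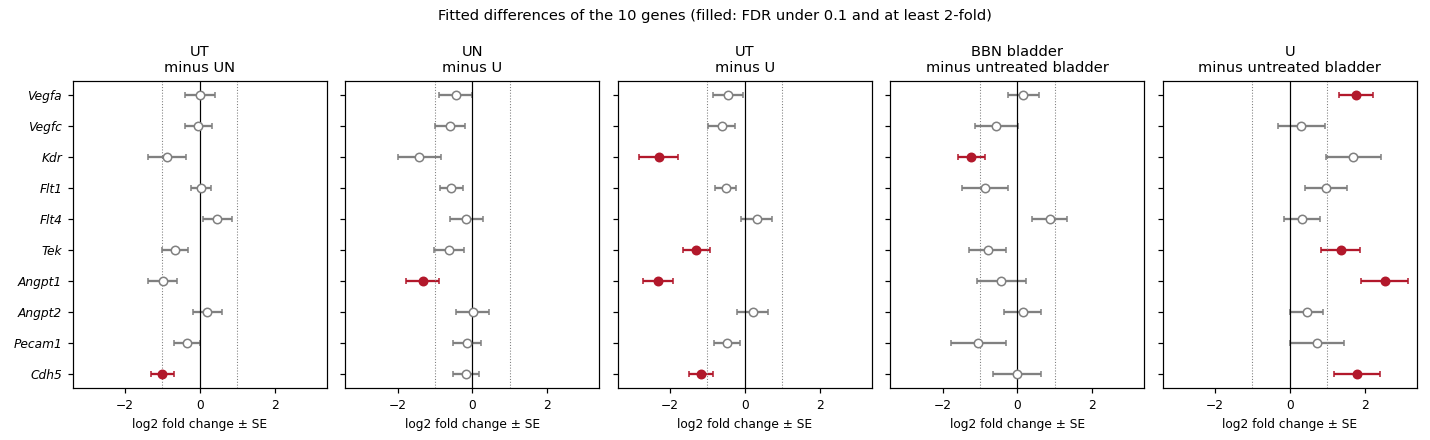
Log2 fold change of each gene with its standard error (bars) on the horizontal axis in 5 comparisons, dotted lines marking 2-fold. Filled red points passed FDR 0.1 and 2-fold, which were 1, 1, 4, 1 and 4 genes from left to right, and the comparisons share libraries.

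The bladder served as the organ that received the same carcinogen. In BBN bladders Kdr was lower than in untreated bladders and the 9 other genes were not called. This was 1 of 10 genes lower and 0 higher, beside 5.47% of 17984 genes lower and 7.08% higher. The median log2 fold change was -0.49 over the 10 genes and 0.23 over all genes.

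Kdr was 33.24, 38.43 and 56.87 CPM in the 3 untreated bladders and 5.882, 13.57 and 35.96 CPM in 9 BBN bladders. The groups overlapped only through BBN bladder 2 (35.96), and the log2 fold change was -1.23 ± 0.37 (edgeR adjusted p = 0.0572). BBN bladder 6 had the lowest Kdr of all bladders, at 3.347 CPM. Leaving out any of the 3 untreated bladders ended the call. Of 10 urothelial markers 5 were lower in BBN bladders (626 to 6751 against 16820 to 17550 CPM), as were 2 of 5 fibroblast markers (612.4 to 3448 against 3574 to 5061 CPM), and 2 of 6 leukocyte markers were higher (123.7 to 446.4 against 159.6 to 185.2 CPM). The smooth muscle sum was 997.7 to 7424 CPM in BBN and 9258 to 11120 CPM in untreated bladders, without overlap. Their part in the lower Kdr was not tested.

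Pecam1 was 66.74, 68.44 and 103.9 CPM in untreated bladders and 4.104, 16.3 and 125.2 CPM in BBN bladders, a range too wide for its log2 fold change of -1.04 ± 0.73 (edgeR adjusted p = 0.351) to pass. The 3 bladders of RIN below 5 held the lowest values (4.104, 4.778 and 7.161 CPM). Without them Pecam1 moved to -0.59, and Angpt1 was called at -1.24. Flt4 went the other way without passing, from 6.481, 6.993 and 8.846 CPM in untreated to a median of 11.24 CPM in BBN bladders (log2 fold change 0.87 ± 0.47, edgeR adjusted p = 0.233). Vegfa was 44.16, 44.29 and 48.23 CPM in untreated bladders and 10.12 to 93.99 CPM in BBN bladders (0.16 ± 0.42 log2, edgeR adjusted p = 0.83).

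Untreated ureter was compared with untreated bladder, since both organs are lined by urothelium. Both came from the same 3 mice, while the main fit took their libraries as independent. Vegfa, Angpt1, Tek and Cdh5 were higher in the ureter and 0 genes were lower, so 4 of 10 were called, beside 7.04% of 18757 genes higher and 8.73% lower. The median log2 fold change was 1.16 over the 10 genes and -0.01 over all genes.

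Angpt1 was 3.345, 6.92 and 7.26 CPM in untreated bladder, below the lowest ureter of 19.66 CPM (log2 fold change 2.54 ± 0.64, edgeR adjusted p = 0.0085). Vegfa also separated the tissues without overlap, at 44.16 to 48.23 against 98.17 to 149.6 CPM (1.76 ± 0.45 log2, edgeR adjusted p = 0.00958). Cdh5 was 7.221, 7.387 and 8.325 CPM in bladder, below the lowest ureter of 10.68 CPM (1.79 ± 0.62 log2, edgeR adjusted p = 0.0567). Tek overlapped through U 3L (28.25 CPM) and untreated bladder 2 (34.7 CPM), at 1.36 ± 0.52 log2 (edgeR adjusted p = 0.0857).

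Kdr was higher in ureter by 1.70 ± 0.74 on the log2 scale without passing (edgeR adjusted p = 0.145). It was called with DESeq2 (adjusted p = 0.0466), with a random effect of mouse and without the libraries of RIN below 5 of the BBN-treated mice, each of which gave 5 calls. Leaving out untreated bladder 1, 2 or 3, or U 2L, reduced the calls from 4 to 2, and leaving out U 1R, U 1L, U 2R or U 3R to 3. Tek lost its call in 8 of these 9 fits and kept it without U 3L. Of 5 adipocyte markers 5 were higher in the ureter (9971 to 15250 against 18.05 to 422.7 CPM), and 4 of 7 smooth muscle and 7 of 10 urothelial markers were lower. Their part in these differences was not tested.

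Whether the difference by BBN on the noncancer side differed from that in the bladder was tested as an interaction. None of the 10 genes was called by edgeR, beside 1.65% of 18757 genes higher and 0.682% lower, and 0 had an unadjusted p under 0.05. DESeq2 called 0 as well. The interaction was -1.0 ± 0.59 for Flt4, -0.81 ± 0.71 for Angpt1, 0.93 ± 0.85 for Pecam1 and -0.15 ± 0.84 for Kdr on the log2 scale, with errors that leave room for differences of 2-fold in either direction for Kdr.

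Ratios within a library do not depend on its total. The log2 ratio of Angpt2 to Angpt1 counts was -1.65 to -1.24 in U, a band of 6 libraries in which Angpt1 always exceeded Angpt2, and -0.46 to 3.20 in the 10 UT libraries, with no overlap. UN 9 (-1.80) lay below the U band, and the other 6 UN libraries (-0.25 to 0.996) lay inside the UT range. In bladders the ratio was already near or above 0 without BBN (-0.19, 0.40 and 1.75 in untreated, 0.38 to 2.24 in BBN bladders).

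The log2 ratio of Flt1 to Kdr was -2.14 to -1.64 in U and -1.31 to 1.04 in UT, again without overlap, so Kdr stood lower relative to Flt1 in UT. It was -2.26 to 1.59 in UN, where every library except UN 9 also lay above the U band. Kdr to Cdh5 was 2.08 to 2.73 in U and 0.26 to 2.05 in UT, also without overlap in the fit. It was -2.77 to 2.25 in UN, with UN 7 and UN 9 inside the U band and the others below it. Vegfa to Kdr (-0.27 to 1.12 in U, 0.19 to 4.23 in UT) and Pecam1 to Cdh5 (1.96 to 2.74 in U, 2.27 to 3.69 in UT) overlapped, so 3 of the 5 ratios computed did not. UT 9 again stood with U by its low Flt1 to Kdr ratio, and these ratios are given as a description.

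**Figure D4:**
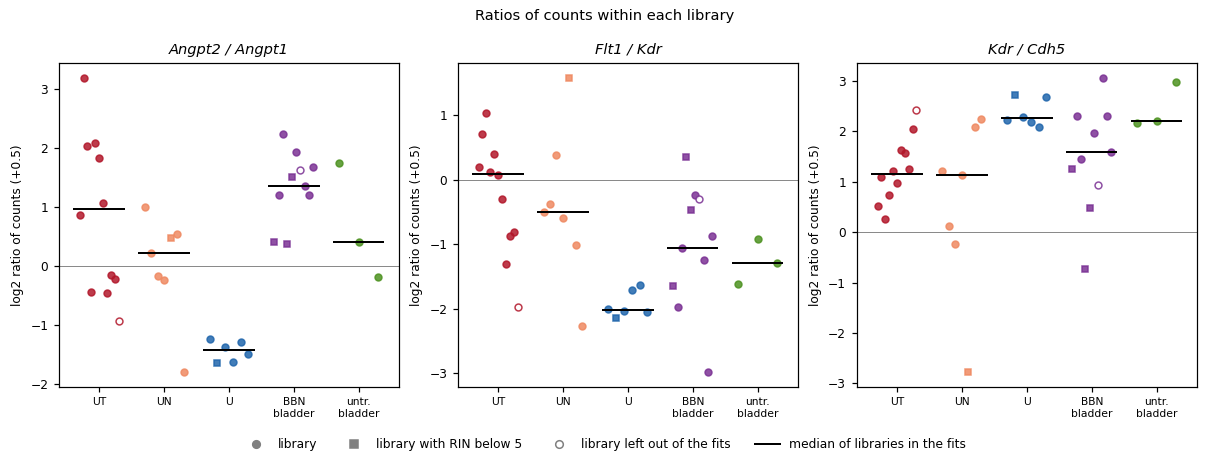
Log2 ratio of counts of Angpt2 to Angpt1, Flt1 to Kdr and Kdr to Cdh5 within a library (0.5 added to each count) on the vertical axes, with 1 point per library in 5 groups, marked as squares for RIN below 5 and open for libraries outside the fits. In these 3 ratios no filled UT point falls within the range of the U libraries.

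Related genes were read from lists of the wider pathway. Of 25 other endothelial markers 8 were lower and 0 higher in UT than in U, beside 14.4% and 18.6% of all genes, with a median log2 fold change of -0.83 beside 0.08 over all genes. Nos3, the endothelial nitric oxide synthase, was 63.54 to 110.6 CPM in U and 8.2 to 61.93 CPM in UT (-2.20 ± 0.42 log2, edgeR adjusted p = 0.00031). Robo4, a receptor that steadies the endothelium, fell by 1.37 on the log2 scale (edgeR adjusted p = 0.000339). With UT 9 the count was 4 of 25, and without UT 8 it was 13, so single libraries set its size.

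Of 11 other angiogenic receptors and co-receptors 5 were lower and 0 higher in UT than in U, beside 14.4% and 18.6% of all genes, and 8 were lower without UT 8. Notch4, a receptor of arterial endothelium, was 15.95 to 38.06 CPM in U and 4.595 to 27.26 CPM in UT (-1.80 ± 0.35 log2, edgeR adjusted p = 0.000305). Notch4 was also the gene most like Kdr over libraries and was lower in UN (-1.43 ± 0.38 log2, edgeR adjusted p = 0.0179). Of 10 mural cell markers 5 were lower (14.4% of all genes), among them Mcam (-1.31 ± 0.28 log2, edgeR adjusted p = 0.000706) and the pericyte proteoglycan gene Cspg4 (-2.33 ± 0.50 log2, edgeR adjusted p = 0.000747).

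Lymphatic markers went the other way. Of 6 listed, 4 were higher in UT than in U and 3 in UN than in U, at median log2 fold changes of 1.87 and 1.65, beside 18.6% and 11.9% of all genes higher. Pdpn was 12.08 to 17.93 CPM in U and 49.47 to 158.8 CPM in UT (2.37 ± 0.29 log2, edgeR adjusted p = 8.26e-06), and it is also made by fibroblasts and basal epithelium. Mmrn1, which is more restricted, was higher by 2.60 ± 0.93 on the log2 scale (edgeR adjusted p = 0.025). With the mouse as a random effect 1 of 6 was called in UT against U and 1 of 6 in UN against U, where the count was also 1 without UN 2, U 1R, U 2L, U 3R or U 3L. Of 6 leukocyte markers 2 were higher in UN than in U (130.2 to 744.6 against 125.8 to 223.4 CPM).

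Some genes stand in 2 lists, among them Adm, Dll4 and Robo4. The other ligands were split, UT having 3 of 10 above and 3 below their level in U by the test, beside 18.6% and 14.4% of all genes. Adm, the gene of the vasodilator adrenomedullin, was 14.93 to 18.52 CPM in U and 37.28 to 630.1 CPM in UT, without overlap (2.90 ± 0.57 log2, edgeR adjusted p = 0.000382). Vegfb, a ligand of Flt1, was 86.12 to 125.4 CPM in U and 12.03 to 41.88 CPM in UT, also without overlap (-2.71 ± 0.43 log2, edgeR adjusted p = 6.75e-05). It was also lower in UT than in UN (-1.99 ± 0.42 log2, edgeR adjusted p = 0.0341), where no ligand was called lower with UT and UN alone, with the block, with RIN as a covariate or in the first range of library codes.

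Of 10 sprouting and tip cell genes, UT had 4 higher and 2 lower relative to U, beside 18.6% and 14.4% of all genes. Cxcr4, a chemokine receptor of tip cells and leukocytes, rose by 2.89 ± 0.52 and Kcne3 by 2.92 ± 0.51 on the log2 scale (edgeR adjusted p = 0.000157 and 0.000122), while Lama4, a laminin of vessel walls, and Dll4, the Notch ligand of tip cells, were lower (-1.96 ± 0.49 and -1.22 ± 0.31). Leukocyte markers were higher in part, 4 of 6 in UT against U by edgeR and 2 in the random-effect fit. In UT 10, which had the highest sum of the sprouting list (1038 CPM), the leukocyte sum was the lowest of UT (180.7 CPM). That sum lay within the U range of 125.8 to 223.4 CPM, as did the leukocyte sum of UT 4 (216.7 CPM). Of 8 angiogenesis inhibitors 2 were higher, Adamts1 (2.71 ± 0.44 log2) and Thbs1 (1.99 ± 0.40 log2), and 1, Sema3e, was lower (-1.67 ± 0.43 log2), shares close to those of all genes (18.6% and 14.4%).

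Of 12 measured hypoxia-induced genes 7 were higher in UT than in UN (2.8% of all genes) and 7 higher and 2 lower than in U (18.6% and 14.4%), although Vegfa, a gene of the same response, was not called. Slc2a1, the glucose transporter, was 16.98 to 21.23 CPM in U and 26.24 to 654.3 CPM in UT (2.87 ± 0.62 log2, edgeR adjusted p = 0.00081). Car9 was 0.4406 to 4.107 CPM in UN and 0.9869 to 206.8 CPM in UT (3.89 ± 1.07 log2, edgeR adjusted p = 0.0393). The summed level of the list had a median of 3021 CPM in UT, no higher than the 3161 CPM in UN and 3149 CPM in U, and was high in UT 10 (9513 CPM), UT 2 (7987 CPM) and UT 4 (5914 CPM), the first 2 of which had the highest Vegfa. Against UN the count was 4 without UN 6, of RIN below 5, 5 without UT 10, UN 2 or UN 9, 5 with all 11 UT libraries and 1 with limma-trend. It was 0 when UT and UN were fitted alone, with the mouse as replicate block or random effect, with RIN as a covariate and in the first range of library codes.

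In the bladder, of 25 other endothelial markers 1 was lower with BBN (Cd34, -1.78 ± 0.44 log2, edgeR adjusted p = 0.0212), no larger a share than the 5.47% of all genes, and of 11 receptors 2 were lower (Nrp2 and Notch4). Of 6 lymphatic markers 2 were higher, Mmrn1 (2.56 ± 0.82 log2) and Reln (2.44 ± 0.84 log2), beside 7.08% of all genes, and the list had a median of 2.13. Leaving out untreated bladder 1, 2 or 3 ended the calls of the lymphatic markers and of the receptors by edgeR, and leaving out untreated bladder 2 that of the endothelial marker. Kcne3 was 1.464 to 2.864 CPM in untreated and 10.94 to 43.25 CPM in BBN bladders, without overlap (3.71 ± 0.56 log2, edgeR adjusted p = 0.000975). Rgs5, a pericyte gene, was 64.61 to 73.18 CPM in untreated and 2.499 to 15.69 CPM in BBN bladders, without overlap (-2.83 ± 0.54 log2, edgeR adjusted p = 0.00497). Esm1, a tip cell gene, was 7.659 to 10.41 CPM in untreated and 0 to 2.649 CPM in BBN bladders (-2.69 ± 0.85 log2, edgeR adjusted p = 0.0644), and 0.3478 to 1.079 CPM in U and 1.198 to 12.89 CPM in UN (2.31 ± 0.85 log2, edgeR adjusted p = 0.072). The interaction was 5.01 ± 1.09 log2 (edgeR adjusted p = 0.017).

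**Figure D5:**
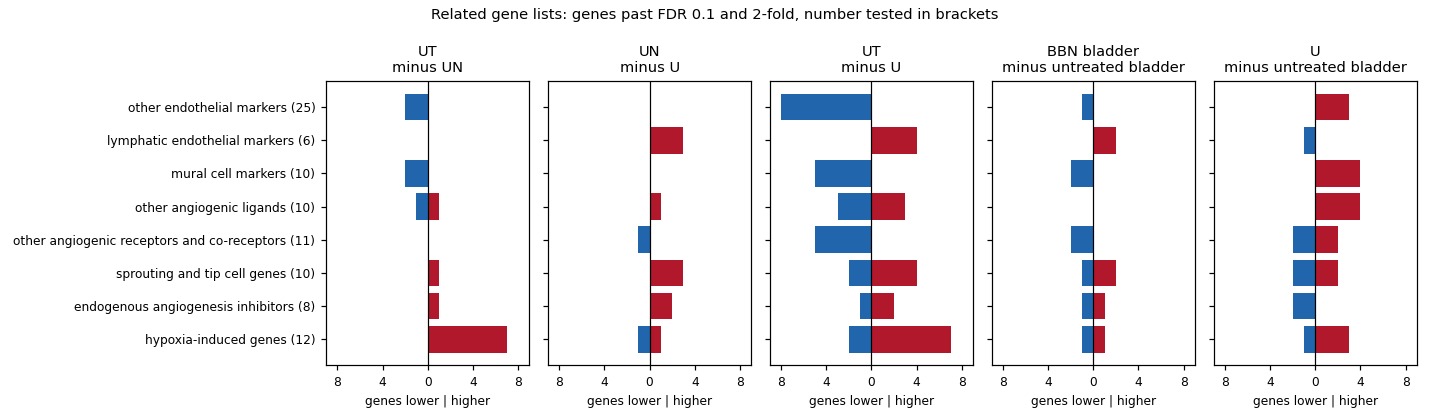
Number of genes past FDR 0.1 and 2-fold in 8 related lists, lower to the left in blue and higher to the right in red, in 5 comparisons, with the number tested in brackets. In UT against U the endothelial bar reaches 8 lower and the hypoxia-induced bar 7 higher.

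The genes whose pattern was most like each member were found by Pearson correlation of log2(CPM + 1) over all 37 libraries, among 15374 genes of at least 1 CPM on average. The libraries share mice, depth and tissue make-up, so the values describe these samples only. Pecam1 was most like Esam (r = 0.973), Tek like Rasip1 (r = 0.960), Kdr like Notch4 (r = 0.927) and Cdh5 like Cd93 (r = 0.926). These partners are endothelial genes by textbook knowledge.

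Flt1 was most like Pdgfrb (r = 0.890), a pericyte and fibroblast receptor, and the endothelial genes Adgrl4 (r = 0.890) and Notch4 (r = 0.866). Angpt1 was most like Dhdh (r = 0.924). Vegfa was most like Adcy3 (r = 0.874), and Angpt2 like Ndufa4l2 (r = 0.742), of the mural list, and Ndrg1 (r = 0.733), of the hypoxia list. Among the members, Kdr and Tek were closest (r = 0.862) and Vegfa and Flt4 least alike (r = 0.125). Vegfc and Flt4 had no partner above 0.731 and 0.716.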

How the data were processed

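WTS libraries were made with the SMARTerHT and NexteraXT kits per the labels. The submitters' processing notes name TopHat2 2.1.1, Cuffdiff 2.2.1 and GRCm38/mm10, and the counting program is not given in the sources used here. The values deposited by the authors are estimated counts by gene symbol without normalization, of which 21.1% of nonzero values are fractional. They were rounded to whole numbers for edgeR and DESeq2, and CPM used unrounded totals. The table had 0 columns without a sample.

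The quasi-likelihood test of edgeR 4.0.16 (R 4.3.3), with TMM and filterByExpr, was run, over 10 UT, 7 UN and 6 U libraries, over 9 BBN and 3 untreated bladders, and over UN, U and both bladder groups. Adjusted p-values are Benjamini-Hochberg over all genes tested, and the standard error is the absolute log2 fold change over the square root of F. Calls needed FDR under 0.1 and 2-fold. p-values take libraries as independent, although U holds both ureters of 3 mice and the 3 untreated bladders came from those mice. The fits were tested on simulated counts. limma 3.58.1 and DESeq2 1.42.0 gave alternatives, and summaries and plots came from Python 3.11.15 (numpy 2.4.6; matplotlib 3.10.9; pandas 2.3.3). Coordinates are of GENCODE on GRCm38.

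UT and UN libraries of 1 number share a mouse. Over 6 mice, deviations from the group means correlated at a median of -0.0436, against -0.0137 over 64 pairs of different mice. Within groups, the most alike pair of libraries still had a chi-square of 7.37 per degree of freedom, so none was counted as a copy.

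The members and lists were chosen with earlier results of these data known. Named were all members, the 3 genes most like each (some given here), and, of each list, genes among the up to 2 per direction with the smallest p among those called. Alternatives were all 11 UT or 10 BBN bladders, UT and UN alone, the mouse as block or random effect, RLE normalization, DESeq2, limma-trend, no filter, RIN as a covariate, libraries of RIN below 5 left out, and single libraries left out. The first of 2 ranges of library codes alone (7 libraries, of mice 8, 9 and 10, left out), and single libraries left out of the fit of UN, U and bladders, were chosen after seeing the data. Genes named as exceptions in single libraries were also chosen after their values were seen.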

Additional observations from a re-analysis of the deposited data

Results flagged for a closer look

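In 4 of 40 cases, each 1 gene in 1 group of 4 to 10 libraries, 1 library lay far from the others on the log2(CPM + 1) scale. The rule was Dixon's test at the 95% level, which chance passes in about 1 in 20 cases. All 4 cases lay in UN 6 or U 3L and the genes share libraries, so the cases are not independent. UN 6, the shallowest UN library and of RIN below 5, was lowest for Vegfc, listed at 0 (0.000, next UN 2 at 1.590), and for Pecam1 (3.224, next UN 3 at 6.151). U 3L was lowest of 6 U libraries for Tek (4.870, next U 2R at 5.793) and for Pecam1 (6.176, next U 2R at 6.645), and had the highest adipocyte sum of U, 15250 CPM. The part of RNA quality or of the adipocyte level in these values was not tested.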

How the results depend on the processing

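Against the 1 gene called in UT minus UN, 0 were called with all 11 UT libraries, with UT and UN alone, with the mouse as replicate block, with the mouse as a random effect, without the filter, with RIN as a covariate and in the first range of library codes, and 2 with RLE and DESeq2. In UN minus U the count was 2, not 1, with the random effect, RLE, DESeq2, limma-trend, RIN and the first range. In UT minus U it was 2, not 4, with all 11 UT libraries. In the bladder it was 2, not 1, without the 3 BBN bladders of RIN below 5, and 0 in the first range. Leaving out 1 library gave counts of 0 to 2 in UT minus UN, 1 to 2 in UN minus U, 4 to 4 in UT minus U, 0 to 1 in the bladder and 2 to 4 in U minus bladder.

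Directions turned mostly in genes near 0, and the cause was not tested. In UT minus UN, the log2 fold change of Vegfa was -0.013 with UT and UN alone, -0.115 with the block, -0.215 with the random effect, -0.008 with RLE, -0.008 with DESeq2, -0.240 with limma-trend, -0.388 with RIN and -0.089 in the first range. Vegfc was 0.089 with all 11 UT, 0.359 with the block, 0.088 with the random effect, 0.017 without the filter, 0.561 with limma-trend and 0.121 in the first range. Kdr was 0.048 with the block and Flt1 -0.146 with RIN. Angpt2 was -0.102 with the block, -0.029 with the random effect, -0.098 with limma-trend and -0.111 with RIN. In UN minus U, Angpt2 was -0.132 with the random effect, -0.055 without the filter and -0.091 with limma-trend, and in UT minus U -0.161, -0.189 with limma-trend and -0.013 with RIN. In the bladder, limma-trend gave -0.011 for Vegfa and -0.010 for Angpt2, Angpt2 was -0.064 without low RIN, and Cdh5 was 0.158 with RLE, 0.156 with DESeq2 and 0.362 in the first range. For the interaction, Vegfc was -0.171 with RLE and -0.074 with DESeq2, and without low RIN Angpt1 was 0.017, Angpt2 0.130 and Cdh5 0.216, while the random effect gave 0.048 for Angpt2 and 0.300 for Cdh5.

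Leaving out 1 library gave ranges, in UT minus UN, of -0.377 to 0.268 for Vegfa, -0.223 to 0.136 for Vegfc, -1.128 to 0.018 for Kdr, -0.067 to 0.226 for Flt1 and -0.086 to 0.392 for Angpt2. In UN minus U they were -0.174 to 0.115 for Angpt2 and -0.359 to 0.051 for Pecam1, and in UT minus U -0.100 to 0.325 for Angpt2. In the bladder they were -0.020 to 0.279 for Vegfa, -0.105 to 0.310 for Angpt2 and -0.269 to 0.181 for Cdh5. For the interaction they were -0.167 to 0.218 for Vegfc, -1.071 to 0.040 for Kdr, -0.090 to 0.379 for Tek, -0.306 to 0.099 for Angpt2 and -0.381 to 0.149 for Cdh5.

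In UT minus U, Kdr stayed between -2.558 and -2.184 and Angpt1 between -2.532 and -2.222 when 1 library was left out. Vegfc rests on few counts, 3 untreated bladders limit each bladder comparison, and the 7 libraries of the second code range were all BBN-treated.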
